A study of Mus musculus with 14 samples.

Results

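Nidogens, laminins and perlecan are the proteins that, with type IV collagen, make up the basement membrane under every epithelium and around muscle and endothelial cells. The members described here are the rows of the deposited expression table that carry one of 10 gene names: Nid1, Nid2, Lama1, Lama2, Lama4, Lama5, Lamb1, Lamb2, Lamc1 and Hspg2. Of these, 9 are among the 15894 genes of the table. Lama1 has no row there and is not analysed here. RNA was measured in the epicardium and the subepicardial layer dissected from mouse hearts at E16.5, on the ventral or on the dorsal side of the ventricles. Every library was made from a pool of 2 hearts, and all libraries carry the genotype label Tbx18Cre, a Cre driver active in epicardial cells, although the study calls the compared hearts wild type. There are 3 ventral and 3 dorsal libraries of female hearts (numbers 1 to 3), and 4 ventral (numbers 4 to 7) and 3 dorsal libraries (numbers 4 to 6) of male hearts. A further male library, number 7, is dorsal in its title and source name but ventral in its tissue field. It is shown here with its values and entered no test except as an alternative.

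A laminin molecule is a trimer of 1 alpha, 1 beta and 1 gamma chain that polymerizes on the cell surface and is held there by integrins and dystroglycan. Nidogens bind the gamma 1 chain and type IV collagen and so link the laminin and collagen networks. Perlecan, the product of Hspg2, is a large heparan sulphate proteoglycan that binds nidogen and growth factors. The epicardium is a mesothelium that rests on such a membrane, and the subepicardial matrix beneath it is where coronary vessels, lymphatics among them, grow. The comparison of both sides asks whether the environment for these vessels differs between them.

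Libraries held 13918995 to 25221314 reads on genes of the table. Values are the authors' normalized CPM, a scale on which 3 reads correspond to 0.135 to 0.253. Members had at least 193 reads in every library, so none was near this floor. The epicardial genes Wt1 (26.4 to 216 normalized CPM in the libraries of settled region) and Tbx18 (19.5 to 98.7) were present in every library. Ventricular cardiomyocyte genes were present too, with summed values of 17324 to 45659 over a list of 10, so the dissected layer also held RNA from myocardium. Of 5 lung epithelium markers none was listed. A pair of libraries stood apart. Male ventral 7 had summed erythroid markers of 33713, against 3895 to 6770 in the other male ventral libraries, and summed blood endothelial markers of 64.4 against 346 to 458. Female dorsal 1 had summed atrial markers of 12483, against 1995 and 492.9 in the other female dorsal libraries. Results without them stand beside those that rest on them. The labels say that pools came from at least 3 litters but not which. P-values measure the spread between libraries, with same-numbered ventral and dorsal libraries counted separately unless stated.

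The binding of nidogen to laminin runs through a short sequence of the gamma 1 chain, which is why its coding bases are shown for Lamc1. They were found by translation in the longest reading frame of transcript ENSMUST00000027752.14 (GENCODE M21, GRCm38; Lamc1 is on the minus strand of chromosome 1, 153218922 to 153332786). The stretch covers transcript bases 2714 to 2782, within the coding sequence. Capitals mark the 21 bases that code for the 7 residues of the nidogen-binding sequence, codons 831 to 837 of 1607. The longest reading frames of the other 8 members do not hold these residues.
Lamc1: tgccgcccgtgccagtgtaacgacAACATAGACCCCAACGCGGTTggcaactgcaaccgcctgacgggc

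Levels were compared between members per kilobase of exon, the union of all exons of a gene, over the 13 libraries of settled region. Nid1 had the highest mean, 27.6 ± 8.28 normalized CPM per kilobase (SD, n = 13). It was followed by Lamb1 (22.8 ± 4.37) and Lamc1 (20.9 ± 3.62), the beta and gamma chains that most laminins share. Nid1 stood above Lamb1 in 12 of 13 libraries and Lamb1 above Lamc1 in 10, but the gaps between these means are smaller than the larger SD of each pair. Lama4, the alpha chain of vascular basement membranes, came next (13.2 ± 3.33), with Nid2 (13.1 ± 4.34) and Lamb2 (10.3 ± 3.28) close to it and not separated by their spread. Hspg2 measured 7.68 ± 2.64 per kilobase. Lama2, the alpha chain of muscle laminin, and Lama5, the alpha chain of many epithelial laminins, were the lowest at 3.22 ± 0.967 and 3.19 ± 1.44, and Lama2 stood above Lama5 in only 7 of 13 libraries. The gaps between Lamc1 and Lama4 and between Hspg2 and Lama2 were wider than either SD and held in 13 of 13 libraries each. With the length of the longest transcript instead, Lamb1 (39.1 per kilobase) came before Nid1 (31.4) in 13 of 13 libraries. Lama4 (26.4) then came before Lamc1 (22.7), since the union of exons is far longer than 1 transcript for Lamb1, Lama4 and Lama2. By this length the gap between Hspg2 (7.75 ± 2.67) and Lama2 (5.47 ± 1.64) was smaller than the larger SD and held in 12 of 13 libraries. Lama2 then stood above Lama5 in 12 of 13 libraries.

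**Figure D1:**
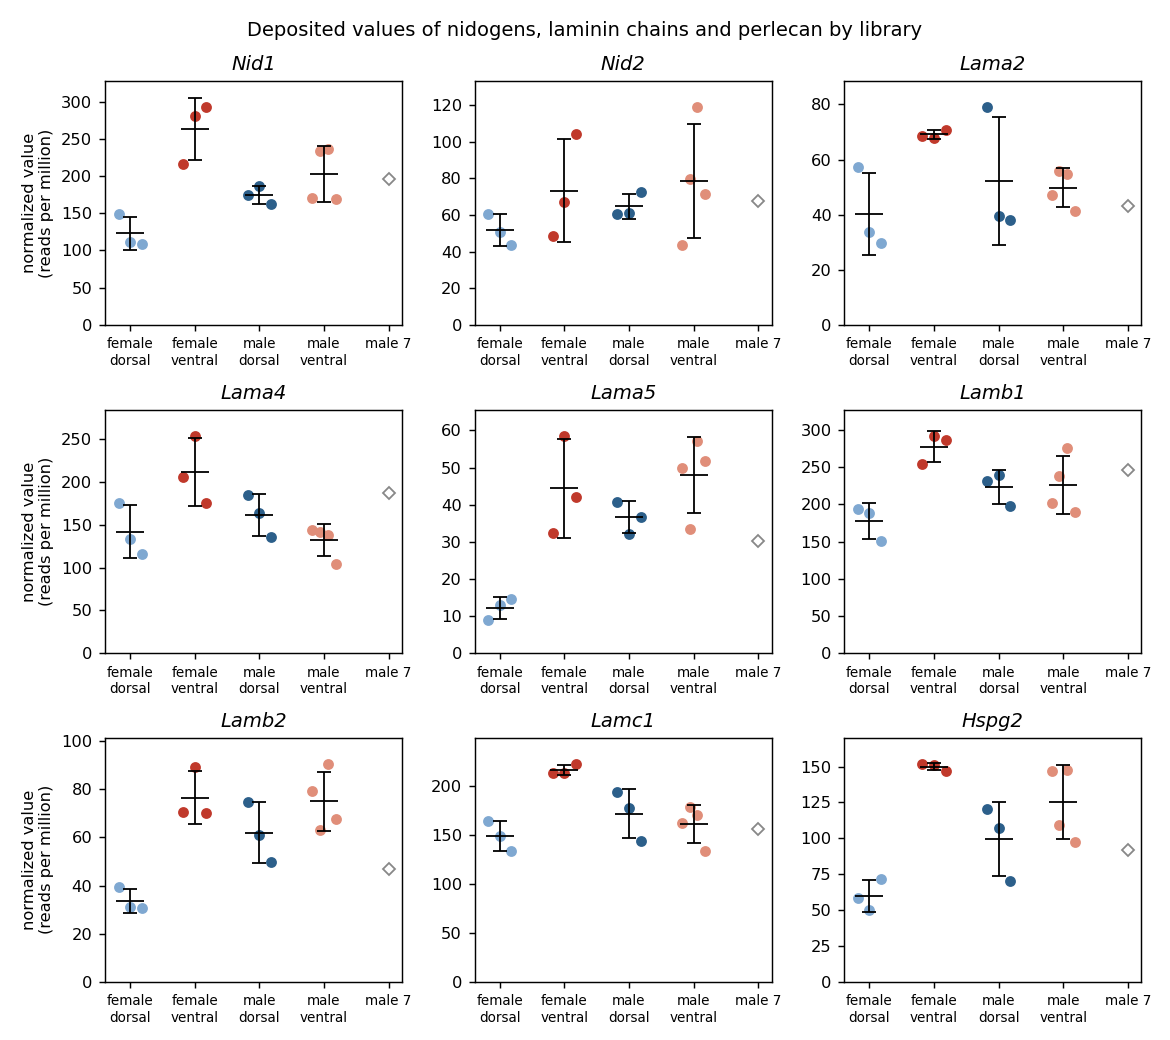
Normalized CPM (y axis, linear, from 0) of the 9 members in each library, 1 point per library, by sex and side on the x axis; bars are means ± SD (n = 3, or 4 for male ventral) and the open diamond is male library 7. Female dorsal libraries are lowest for Lama5 (8.94 to 14.7), and the female groups are separate for 7 of the 9 genes, whereas the male groups overlap for all 9.

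In female hearts, 8 of the 9 members rose on the ventral side, and Nid2 did not pass the test (limma on log2(value + 1), Benjamini-Hochberg adjusted p under 0.05). The background is 14.5% of 14411 genes called higher ventrally. The median change of the members was 0.83 on the log2 scale, against 0.01 over all genes tested. The ventral and dorsal values of 7 members did not overlap, with the ventral ones higher, as for 23.2% of all genes. In bulk RNA, more cells of a type and more RNA per cell cannot be told apart. Changes are differences in log2(value + 1), and intervals are 95% confidence intervals from limma.

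Perlecan and the alpha 5 chain had the largest changes. Hspg2 (chromosome 4, 137468769 to 137570630, plus strand) was at 152, 151 and 147 normalized CPM in ventral libraries 1 to 3 of female hearts and at 58.1, 49.8 and 71.8 in dorsal libraries 1 to 3. The ventral values almost coincide, and the highest dorsal value is far below them. The change was 1.32 (SE 0.154, interval 0.98 to 1.67, limma adjusted p = 6.87e-04). Lama5 (chromosome 2, 180176373 to 180225859, minus strand) measured 32.4, 58.6 and 42.1 ventrally and 8.94, 13.04 and 14.7 dorsally. Its ventral mean was 3.63 times the dorsal one, with a change of 1.76 (SE 0.262, interval 1.18 to 2.35, limma adjusted p = 0.00190). Lama5 was called in all 16 alternatives of this comparison, with adjusted p from 3.00e-04 to 0.0232. Hspg2 was called in 15 of 16.

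Nid1 (chromosome 13, 13437551 to 13512269, plus strand), the more abundant nidogen here, measured 215, 281 and 292 normalized CPM ventrally and 149, 112 and 109 dorsally. The groups were separate, by a change of 1.09 (SE 0.173, limma adjusted p = 0.00245) that was called in all 16 alternatives. Of its 60-base windows, 1.54% also occur in Gm2399, and an exon overlaps the antisense gene Gm48682. The second nidogen, Nid2 (chromosome 14, 19751265 to 19811787, plus strand), measured 48.5, 67.3 and 104 ventrally and 60.8, 50.8 and 43.6 dorsally. Ventral 1 lay among the dorsal values, and the change of 0.44 (SE 0.253, interval -0.13 to 1.003, limma adjusted p = 0.224) was not called. Without female ventral replicate 1 Nid2 was called (0.70, limma adjusted p = 0.0485). Part of its exons overlaps Rtraf on the opposite strand. Whether the counting used strand is not given in the sources used here, so reads of this overlap and of those of Nid1 and Lama2 with antisense genes cannot be assigned.

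The beta chains both rose. Lamb2 (chromosome 9, 108479736 to 108490530, plus strand), the beta chain of neuromuscular and vascular smooth muscle laminins, measured 70.4, 89.1 and 70.3 normalized CPM ventrally and 39.3, 31.1 and 30.5 dorsally. Its change was 1.16 (SE 0.168, limma adjusted p = 0.00169), called in all 16 alternatives. Lamb1 (chromosome 12, 31265234 to 31329644, plus strand), the widespread beta chain, measured 254, 292 and 286 ventrally and 194, 189 and 150 dorsally, a change of 0.65 (SE 0.145, limma adjusted p = 0.0104). Lamc1 measured 213, 213 and 222 ventrally and 164, 149 and 134 dorsally, a change of 0.54 (SE 0.130, limma adjusted p = 0.0143). Lamb1 and Lamc1 thus changed by less than Lamb2 in point value. The difference between members was not tested. Without female dorsal replicate 3, Lamc1 was not called (0.46, limma adjusted p = 0.0519).

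The alpha 2 and alpha 4 chains gave weaker calls. Lama2 (chromosome 10, 26980036 to 27619758, minus strand) measured 68.6, 67.9 and 70.9 normalized CPM ventrally and 57.2, 33.6 and 29.6 dorsally. Its change was 0.83 (SE 0.225, limma adjusted p = 0.0230), and the dorsal libraries spread far more than the ventral ones. The call was lost without female ventral replicate 2 or 3 or female dorsal replicate 2 or 3, with limma adjusted p from 0.0642 to 0.0773. Its exons overlap the antisense gene Gm48084. Lama4 (chromosome 10, 38965515 to 39110188, plus strand) measured 206, 254 and 175 ventrally and 176, 134 and 116 dorsally, and ventral 3 lay just under dorsal 1. The change of 0.58 (SE 0.190, limma adjusted p = 0.0466) was lost in 11 of 16 alternatives, among them a pseudocount of 0.1 (0.0504) and each fit without female ventral replicate 1 or 2 or female dorsal replicate 2 or 3 (0.0798 to 0.171). Without female dorsal replicate 3, 5 members were called in place of 8. Without female dorsal replicate 1, the library with high atrial markers, all 8 were called.

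Genes that mark cell types moved with the same comparison. All 10 epicardial markers rose ventrally, and in female libraries their summed value was 1809 to 2953 ventrally and 289 to 659 dorsally. Fibroblast markers rose for 5 of 8 (11545 to 22103 against 2904 to 4547), macrophage markers for 5 of 6 (130 to 262 against 44.6 to 79.5) and lymphatic endothelial markers for 3 of 6 (360 to 752 against 146 to 184). Of the 6 blood endothelial markers none was called (292 to 503 against 371 to 489). Smooth muscle and pericyte markers were called lower ventrally for 3 of 6 and higher for 1 (745 to 1151 against 1269 to 1575). Of the 10 ventricular cardiomyocyte markers, 8 were below 0 with none called lower, and the other 2 were called higher (median change -0.29). Their sums overlapped (22529 to 32656 against 29565 to 44683). These markers and the lists above are the ones meant next. The part of all these cell types in the changes of the members was not tested.

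In male hearts no member was called between the sides, nor was any gene among the 14917 tested (background 0%). At an unadjusted p under 0.05 there were 2083 genes and no member. An edgeR test on the recovered reads called 0 genes as well, whereas a block on the replicate number called 76 genes, none of them a member. Leaving out male dorsal replicate 6 gave 12 genes and no member. The changes of 7 members were above 0 and of 2 below, with a median of 0.19, and for no member was every ventral library above every dorsal one (6.18% of all genes). Lama5 measured 49.996, 33.5, 57.2 and 51.7 normalized CPM in male ventral libraries 4 to 7 and 40.8, 32.2 and 36.8 in dorsal libraries 4 to 6. A single ventral library lay within the dorsal range, and the change was 0.36 (interval -0.09 to 0.82, limma adjusted p = 0.436). Hspg2 measured 147, 109, 147 and 97.2 ventrally and 120, 107 and 70.6 dorsally (0.34, interval -0.15 to 0.83, limma adjusted p = 0.496). Lamb2 measured 79.1, 63.1, 90.5 and 67.5 ventrally and 74.9, 61.1 and 49.6 dorsally (0.28, interval -0.13 to 0.70, limma adjusted p = 0.505). Both genes overlapped between sides.

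Nid1 measured 170, 233, 236 and 169 normalized CPM in the male ventral libraries and 174, 187 and 163 in the dorsal ones, a change of 0.19 whose interval, -0.17 to 0.56, ends below the female value. Nid2 measured 43.7, 79.8, 119 and 71.4 ventrally and 60.7, 60.8 and 72.2 dorsally (0.19, interval -0.42 to 0.81). Lamb1 measured 201, 238, 276 and 190 ventrally against 232, 240 and 198 dorsally, a change of 0.01 (interval -0.35 to 0.37) that turned negative in 6 of 19 alternatives. Lamc1 measured 162, 178, 170 and 133 against 193, 177 and 144 (-0.09, interval -0.44 to 0.26). Lama2 measured 47.1, 56.0, 54.9 and 41.3 against 79.0, 39.5 and 38.0 (0.01, interval -0.56 to 0.57), and its dorsal library 4 stood far above the others. Lama4 measured 144, 141, 139 and 105 against 185, 163 and 135. Dorsal library 6 lay among its ventral values, and its change of -0.28 (interval -0.65 to 0.09, limma adjusted p = 0.454) kept its sign in all 19 alternatives and was never called. Without male ventral replicate 7, the library with high erythroid markers, no member was called either and the Lama4 change was -0.18. Epicardial markers were above 0 for 10 of 10 in males with none called (summed 2072 to 6365 ventrally and 1677 to 4452 dorsally). Ventricular cardiomyocyte markers were below 0 for 8 of 10 and above 0 for 2, with none called. Their sums did not overlap between the male sides (17324 to 33939 ventrally and 35250 to 45659 dorsally). The part of either list in the values of the members was not tested.

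**Figure D2:**
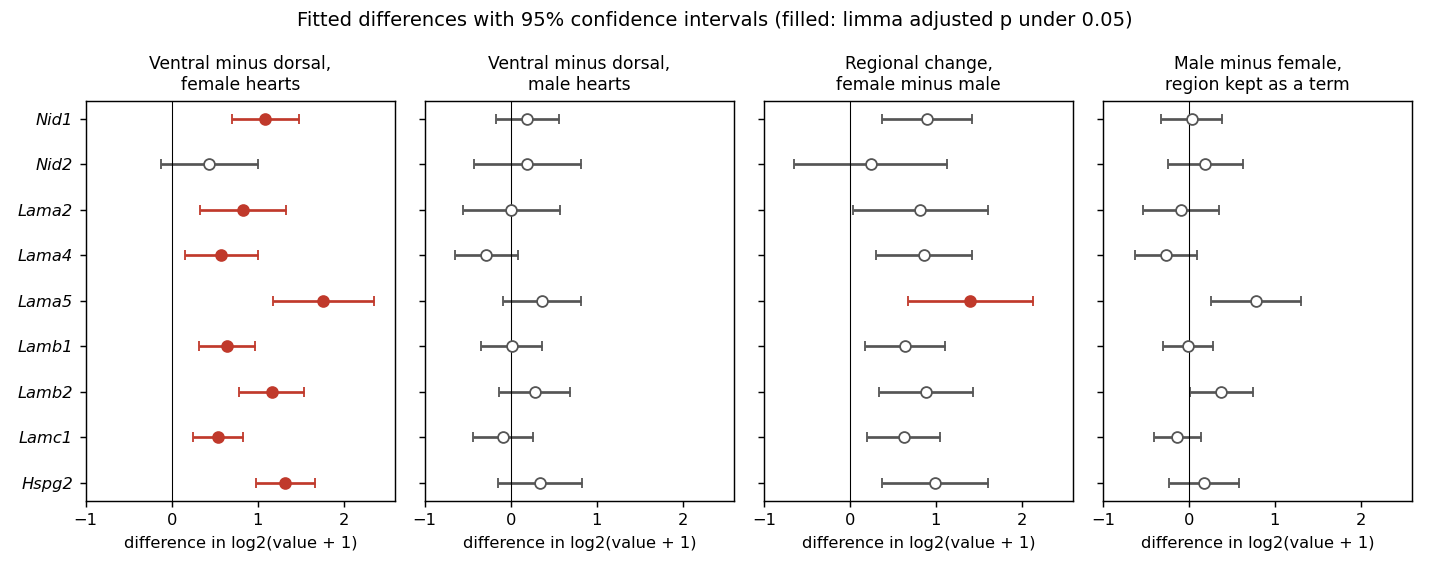
Fitted differences in log2(value + 1) (x axis) of each member (rows) with 95% confidence intervals, for the sides in female and in male hearts, for the female minus male regional change and for male minus female; filled points have a limma adjusted p under 0.05. Of the members, 8 are filled in female hearts, none in male hearts, Lama5 alone in the difference between the regional changes, and none between the sexes.

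The difference between the female and the male regional change was tested directly. It was above 0 for all 9 members, with a median of 0.86 against 0.02 over all genes tested, and it was called for Lama5 alone (background 0.615% of 15772 genes called with a larger change in females). The Lama5 difference was 1.40 (SE 0.341, interval 0.67 to 2.13, limma adjusted p = 0.0406). The female dorsal libraries held 8.94 to 14.7 normalized CPM of Lama5, and the other 10 libraries of settled region held 32.2 to 58.6. This call was narrow. It was lost in 13 of 25 alternatives, which include each fit without male dorsal replicate 4, 5 or 6, male ventral replicate 4, 5 or 7, female ventral replicate 2 or 3, or female dorsal replicate 1 or 2 (limma adjusted p from 0.0530 to 0.121 in these 10). The next members were Nid1 (0.90, limma adjusted p = 0.0700), Lamb2 (0.88, limma adjusted p = 0.0890) and Hspg2 (0.99, limma adjusted p = 0.0929), which were not called. Nid1 was called without female ventral replicate 1 (limma adjusted p = 0.0457) or female dorsal replicate 1 (0.0455), and Lamb2 (0.0468) and Hspg2 (0.0227) without male dorsal replicate 6. A block on the replicate number moved the count over all genes from 431 to 804, and Lama5 was still the member called. For the other members a regional change that differs between the sexes is not shown by the test.

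With both sexes in 1 fit and sex as a term, 4 members rose ventrally, Lama5 (1.02, limma adjusted p = 0.0142), Hspg2 (0.80, limma adjusted p = 0.0135), Lamb2 (0.69, limma adjusted p = 0.0150) and Nid1 (0.61, limma adjusted p = 0.0224), against a background of 9.80%. Over all genes, 1545 were higher ventrally and 1429 lower. With a trend on GC content and length removed, that balance became 1002 against 1693. Nid1 lost its call without female ventral replicate 2 (limma adjusted p = 0.0580) or 3 (0.0546) or female dorsal replicate 2 (0.0585). The changes of Lama2 (0.39), Lamb1 (0.31), Nid2 (0.31), Lamc1 (0.20) and Lama4 (0.12) were not called, although Lama2 was called without male dorsal replicate 4 (0.60, limma adjusted p = 0.0304). Male library 7, of unsettled side, measured 92.1 for Hspg2, 46.7 for Lamb2, 30.1 for Lama5 and 196 for Nid1. The first 3 of these values are within or below the male dorsal range, and the Nid1 value is above that range and within the ventral one.

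Between the sexes, with region as a term, no member was called, against 10.9% of 15772 genes. At an unadjusted p under 0.05 there were 4030 genes and 2 members, Lama5 and Lamb2, and edgeR called 1540 genes and no member. Lama5 was higher in males by 0.78 (SE 0.245, interval 0.26 to 1.301) with a limma adjusted p of 0.0523, and this value was called in 6 of 24 alternatives. Among these were the fits without male ventral replicate 5 (0.91, limma adjusted p = 0.0206) and without female ventral replicate 2 (0.97, limma adjusted p = 0.0167). Lamb2 was higher by 0.38 (interval 0.02 to 0.74, limma adjusted p = 0.173). The other 7 members differed by -0.27 to 0.19, with intervals that include 0. Epicardial markers were called higher in males for 6 of 10, and their summed values in dorsal libraries were 289 to 659 in females and 1677 to 4452 in males. Their part in the Lama5 difference was not tested. Female hearts carry the numbers 1 to 3 and male hearts 4 to 7, and whether the pools of each sex were handled separately is not given in the sources used here, so such handling and sex cannot be told apart. Same-numbered ventral and dorsal libraries counted as separate units in this fit. With them averaged, 944 genes were called in place of 1726, Lama5 among them.

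The members with the largest regional changes are rich in G and C and long. The GC content of the longest transcript is 60.9% for Hspg2, 59.9% for Lama5 and 58.8% for Lamb2, against a median of 49.2% over the listed genes. These transcripts are 14.2, 11.4 and 5.63 kilobases long, against a median of 3.19. The 69 genes tested, Hspg2 and Lama5 among them, that were in the top 10% of both GC content (at least 57.5%) and length (at least 6.75 kilobases) had a median change of 0.87, and 50.7% of them were called higher, against 0.01 and 14.5% of all genes. In males the median of this class was 0.23 (72 genes). When a smooth trend on GC content and length was removed from each library, 3 members were called in female hearts in place of 8. These were Nid1 (0.86, limma adjusted p = 0.00432), Lama5 (0.95, limma adjusted p = 0.0232) and Lamb2 (0.68, limma adjusted p = 0.0105). Hspg2 went from 1.32 to 0.46 (limma adjusted p = 0.0603) and Lamc1 from 0.54 to 0.07 (limma adjusted p = 0.710). The median over the members went from 0.83 to 0.39, and over both sexes 1 member, Nid1, was called in place of 4. Nid1 moved least in proportion. Its GC content is 50.4%, and Lama2, with the lowest GC content of the members (47.7%), went from 0.83 to 0.39 in female hearts. The reason for the small move of Nid1 was not tested.

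**Figure D3:**
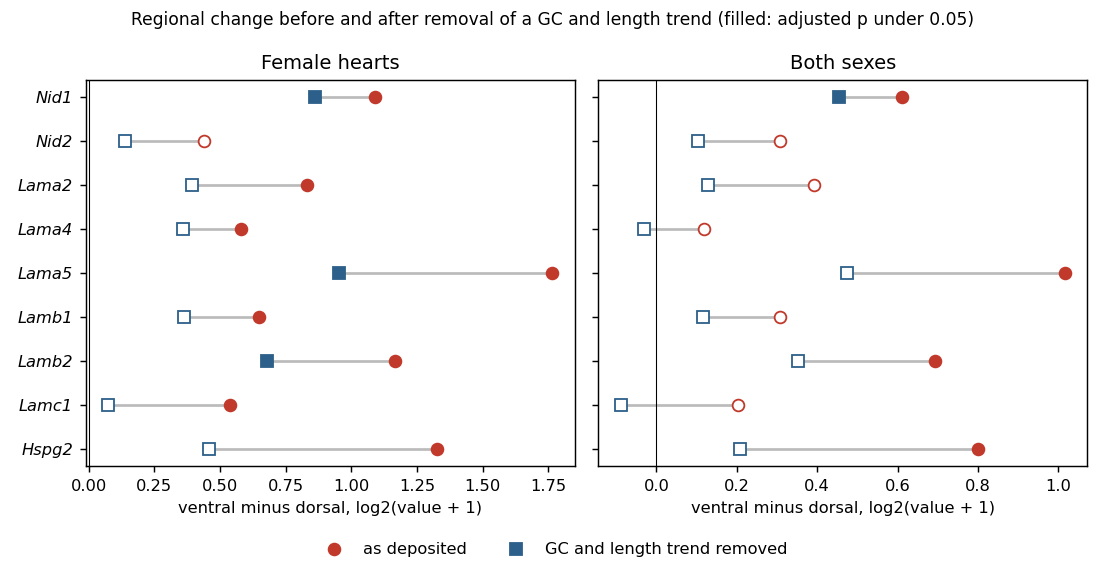
Ventral minus dorsal difference in log2(value + 1) (x axis) of each member before (circles) and after (squares) a GC and length trend was removed from each library, in female hearts and in both sexes; filled symbols have a limma adjusted p under 0.05. All 9 values are smaller after removal in both panels, and in female hearts Nid1, Lama5 and Lamb2 stay filled.

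Which member predominates within a family can be read as its share, per kilobase of exon, of the sum of the family's members in a library. Alpha chains here mean Lama2, Lama4 and Lama5, and beta chains mean Lamb1 and Lamb2. Lama3 (1.50 to 13.8 normalized CPM in the libraries of settled region) and Lamb3 (4.52 to 31.3) are not members and were left out of these sums. The shares and sums are therefore not those of all chains of a family. Lama4 made up most of this alpha chain sum in every library. Lama5 held 4.16, 8.01 and 10.1% of the alpha chain sum in female dorsal libraries 1 to 3 and 11.8, 16.9 and 16.4% in ventral libraries 1 to 3. In males it held 15.1, 15.1 and 19.3% dorsally in libraries 4 to 6 and 22.8, 16.3, 25.3 and 28.8% ventrally in libraries 4 to 7. The female sides were separate and the male sides overlapped, also without female dorsal 1 and male ventral 7, the libraries that stood apart. With 3 against 3 libraries the exact two-sided permutation test cannot go below p = 0.10, and no test was run on the shares. The share of Lama2 was 12.9 to 20.4% over all libraries of settled region with no separation by side. Among beta chains, Lamb2 held 23.6% ± 2.11 in female dorsal and 31.0% ± 2.31 in female ventral libraries (SD, n = 3), and 31.0% ± 3.06 in male dorsal (n = 3) and 35.2% ± 3.74 in male ventral libraries (n = 4). Nid1 held 63.9% ± 1.59 of the nidogens in female dorsal, 73.4% ± 4.97 in female ventral, 66.8% ± 3.63 in male dorsal and 66.6% ± 6.33 in male ventral libraries. With the longest transcript as length, the Lama5 share was lower in every group (3.98% in female dorsal and 8.40% in female ventral libraries on average), and the order of the groups was kept. The summed beta chains were 1.25 to 2.08 times Lamc1, and the summed alpha chains 0.787 to 1.18 times, per kilobase of exon union. Per kilobase of the longest transcript these ratios were 1.79 to 2.86 and 1.34 to 1.95, so whether the alpha chains sum to more or less than Lamc1 depends on the length used.

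**Figure D4:**
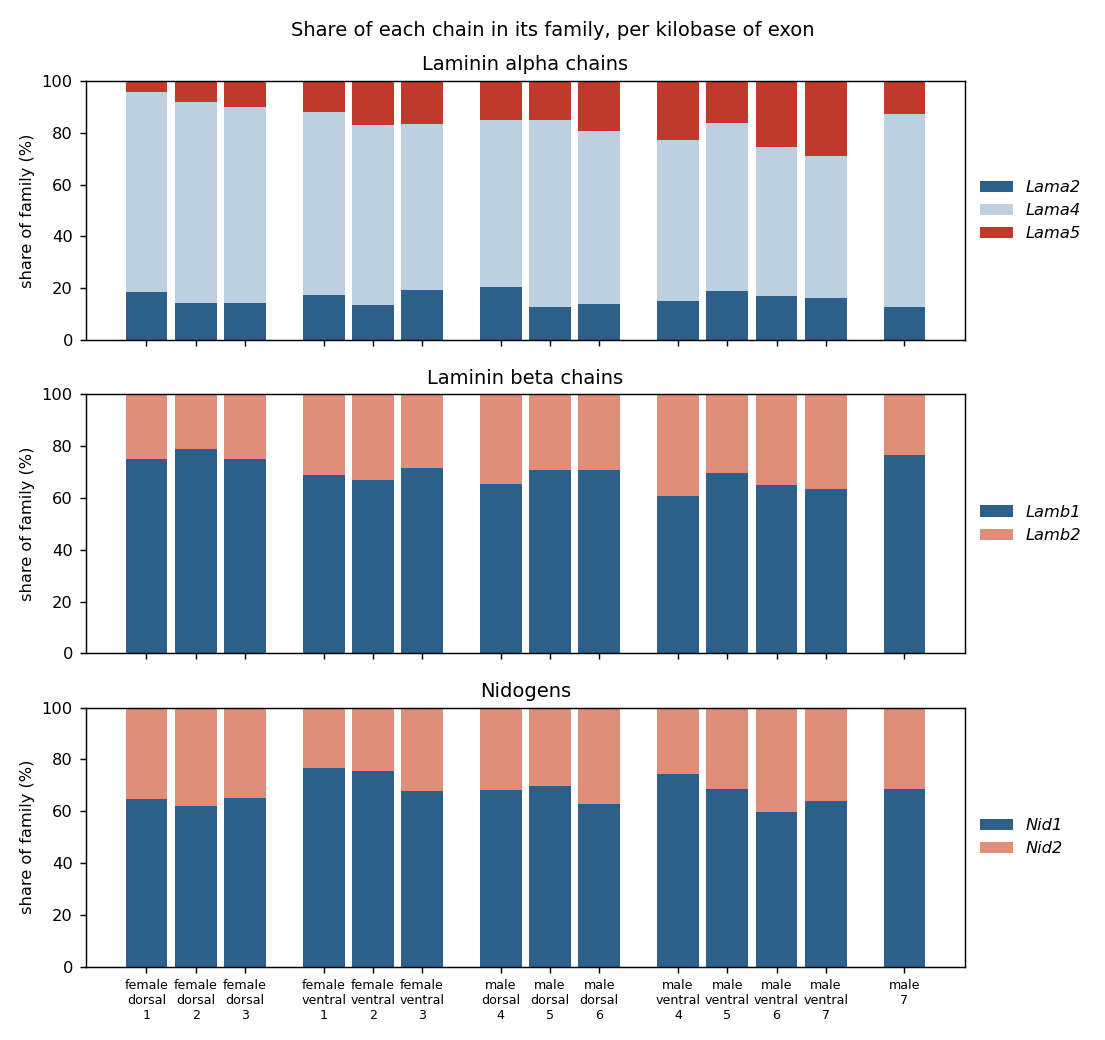
Share (y axis, percent) of each chain in the summed level per kilobase of the members among the alpha chains, the beta chains and the nidogens, 1 stacked bar per library on the x axis. Lama3 and Lamb3 are not in these sums. The Lama5 segment is smallest in the female dorsal libraries (4.16 to 10.1%) and largest in male ventral library 7 (28.8%). Without female dorsal 1 and male ventral 7, the libraries that stood apart, these values are 8.01 to 10.1% and 25.3% (male ventral 6).

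For each member the genes with the most similar pattern over the 13 libraries were found among 9596 others, by the root mean square difference of log2(value + 1) centred on each gene's mean. These distances are a description and share library and depth. The nearest to Nid1 was Pxdn (0.11), the peroxidase that cross-links type IV collagen in basement membranes, followed by Myh10 and Iqgap1. Lamb1 and Lamc1 stood at rank 3 of each other's lists (0.13), after Sptan1 and Igf1r for Lamb1 and Sptan1 and Tspan9 for Lamc1. Hspg2 and Lamb2 were close too: each was the nearest member to the other (0.22), at rank 4 of the list of Hspg2 and rank 5 of that of Lamb2. For Lama5 the nearest genes were Cdh3 (0.26), a cadherin of epithelia, and the type VI collagen chains Col6a1 (0.28) and Col6a2 (0.29), and no member came before rank 52. By rank Nid2 was the farthest from any member, with Lamb1 at rank 208 (0.33, against 0.40 between Lama5 and Lamb2) and with Ikbip, Cpq and Abca9 before all others. Lama2 had Fat1, Hook3 and Sptan1, Lama4 had Zeb1, 2610507B11Rik and Srrt, Lamb2 had Pear1, Ddr1 and Pxn, and Hspg2 had Ulk1, Vars and Man2a2 as nearest genes.

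The rest of the basement membrane changed in the same comparison. Of other laminin chains, those that rose ventrally in females were Lama3 (1.77, limma adjusted p = 0.00646) and Lamb3 (1.297, limma adjusted p = 0.0136), chains of the epithelial laminin that anchors hemidesmosomes. Of the type IV collagen chains 5 of 6 rose, against 14.5% of all genes called higher, with Col4a4 (2.15, limma adjusted p = 0.00243), Col4a2 (1.44, limma adjusted p = 3.04e-04) and Col4a3 (1.06, limma adjusted p = 0.0339) at the largest values. Col4a2, a chain of the main collagen network, measured 273 to 300 normalized CPM ventrally and 101 to 106 dorsally in females. Its regional change was called larger in females than in males (1.23, limma adjusted p = 0.0430), a call lost in 11 of 13 fits without 1 library (limma adjusted p from 0.0510 to 0.116), the exceptions being male ventral 4 and 7. Other basement membrane proteins rose for 11 of 16 tested, and none was called lower. The largest were nephronectin, an integrin ligand (Npnt, 2.44, limma adjusted p = 0.00326), Egfl6 (2.39, limma adjusted p = 0.00368) and fibulin 2 (Fbln2, 2.10, limma adjusted p = 9.87e-04), which binds nidogens and laminins. In males none of these lists had a called gene.

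Of 9 laminin receptors, 4 rose ventrally in females (background 14.5% of all genes), namely Sdc4, a heparan sulphate proteoglycan of the cell surface (2.31, limma adjusted p = 8.13e-04), the integrin chains Itga3 (1.76, limma adjusted p = 0.00178) and Itga7 (1.69, limma adjusted p = 0.0250), and Dag1, which encodes dystroglycan (0.52, limma adjusted p = 0.0203). Itgb1, the beta chain of most laminin-binding integrins, was not called (-0.41, limma adjusted p = 0.0842). Utrn, which encodes utrophin, a cytoskeletal partner of dystroglycan, rose (0.83, limma adjusted p = 0.0322). Dag1, Itgb1, Bcam and Sdc1 were named after their values were seen.

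Several of these calls rested on single libraries. In the female comparison, Col4a3 was lost without female ventral 2 or 3 or female dorsal 2 or 3 (limma adjusted p from 0.0937 to 0.1003), Lamb3 without female ventral 2 (0.0619), and Itga7 without female ventral 2 or female dorsal 1 or 2 (0.0720 to 0.0843). Utrn was lost without female ventral 1 or 2 or female dorsal 2 or 3 (0.0773 to 0.118) and Dag1 without female ventral 2 or 3 or female dorsal 3 (0.0610 to 0.0868). Removal of the GC and length trend ended the calls of Col4a3, Utrn and Dag1. Over both sexes, where 9.80% of all genes were called higher, 4 of 6 type IV collagen chains, 10 of 17 other basement membrane proteins and 3 of 9 receptors rose ventrally, as did Lama3 and Lamb3. Of the 10 genes named above that were called over both sexes, Col4a4 and Npnt were called in every alternative. Without female ventral 2, 7 of them lost the call (limma adjusted p from 0.0529 to 0.0922). At least 1 of them lost it without any other female library or without male dorsal 4 or 5 or male ventral 6 or 7. A block on the replicate number ended those of Lama3 (0.0522) and Itga3 (0.0689).

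The receptors also held a difference between the sexes. Bcam, the Lutheran glycoprotein, which binds the laminin alpha 5 chain, measured 103 to 170 normalized CPM in female ventral, 132 to 185 in female dorsal, 253 to 341 in male ventral and 340.7 to 392.4 in male dorsal libraries. All 7 male libraries of settled region stood above all 6 female ones, by 1.13 on the log2 scale (limma adjusted p = 8.99e-05), and the call held in all 24 alternatives. Itgb1 was lower in males (-0.59, limma adjusted p = 0.0128) in all 24 alternatives too. Sdc1 was called higher (0.50, limma adjusted p = 0.0396), a call lost in 13 of 24 alternatives, 10 of them fits without 1 library (any female one but ventral 2, male dorsal 5 or 6, or male ventral 5, 6 or 7; limma adjusted p from 0.0505 to 0.0930). Of the type IV collagen chains, Col4a3 was higher in males (1.28, limma adjusted p = 0.0313). The Col4a3 call was lost without male dorsal 4 or 6, male ventral 6 or 7, female ventral 1, or female dorsal 2 or 3 (limma adjusted p from 0.0508 to 0.0693).

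**Figure D5:**
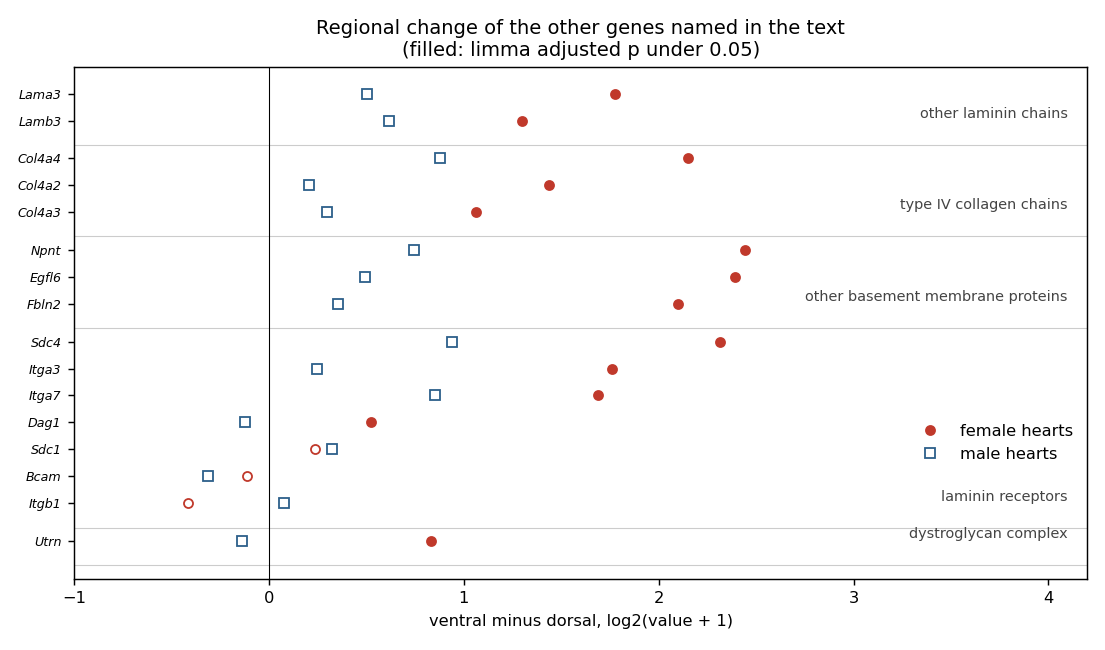
Ventral minus dorsal difference in log2(value + 1) (x axis) of the other laminin chains, type IV collagen chains, basement membrane proteins, laminin receptors and the dystroglycan partner named in the text (rows), in female (circles) and male hearts (squares); filled symbols have a limma adjusted p under 0.05. Filled circles reach up to 2.44 (Npnt), and no square is filled.

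The sequences upstream of the 4 members called over both sexes are shown because these genes passed the test of the sides over both sexes, although their patterns over the libraries differed. They come from RefSeq (GRCm38.p6), whose promoter table held 6 of the 9 members, and are given 5′ to 3′ on the strand of the gene, up to the last base before the annotated start. Capitals mark each GGGCGG on either strand, the letters of the GC box, which 35.7% of the 32851 promoter windows of 300 bases in the table hold. Hspg2 is chr4:137468553-137468768 on the plus strand, Lama5 is chr2:180225860-180226109 on the minus strand, Nid1 is chr13:13437352-13437550 on the plus strand and Lamb2 is chr9:108479612-108479735 on the plus strand.
Hspg2: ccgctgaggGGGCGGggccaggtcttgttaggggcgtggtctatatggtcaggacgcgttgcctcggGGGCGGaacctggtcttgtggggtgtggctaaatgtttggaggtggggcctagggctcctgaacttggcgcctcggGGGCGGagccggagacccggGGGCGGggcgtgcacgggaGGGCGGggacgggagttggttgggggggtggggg
Lama5: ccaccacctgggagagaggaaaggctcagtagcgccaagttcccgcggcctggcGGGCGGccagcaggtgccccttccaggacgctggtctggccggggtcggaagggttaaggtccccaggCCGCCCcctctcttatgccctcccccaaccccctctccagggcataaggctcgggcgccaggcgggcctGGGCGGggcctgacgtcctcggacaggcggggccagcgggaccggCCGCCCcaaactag
Nid1: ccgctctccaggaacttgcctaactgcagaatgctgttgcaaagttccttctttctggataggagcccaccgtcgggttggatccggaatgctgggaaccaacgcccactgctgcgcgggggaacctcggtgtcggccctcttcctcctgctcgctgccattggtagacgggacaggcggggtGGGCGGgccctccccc
Lamb2: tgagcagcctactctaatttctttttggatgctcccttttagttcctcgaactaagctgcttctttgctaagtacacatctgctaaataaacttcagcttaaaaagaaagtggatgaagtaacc

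The stretches of Hspg2, Lama5 and Nid1 hold 5, 4 and 1 of these matches and that of Lamb2 holds none. The full windows, 250 bases before to 50 after the start, have a GC content of 70.3% for Hspg2, 72.7% for Lama5, 64.7% for Nid1 and 44.0% for Lamb2, against a median of 52.7% over all windows. None of the 4 windows holds the letters TATAAA (13.6% of all windows), and CCAAT is found in that of Nid1 (37.4% of all windows), on either strand. A match is a description of these letters and not a measured site.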

How the data were processed

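Values are signal per gene, deposited by the authors as a normalized table. Per the labels and the methods, they trimmed reads with Cutadapt, quantified them with RSEM on GRCm38 and normalized with limma. The RSEM version is 1.3.1 in the submitters' processing notes, whereas the methods of the study name an earlier one. The values are whole reads (recovered for 100% of the values, tolerance 0.02 reads) with an offset of 0.5 reads, scaled to CPM by an effective library size. RSEM's estimated counts therefore appear rounded, and multiply mapped reads are shared between genes. Depth was 13918995 to 25221314 reads per library, and floors of 3 reads cover counting error only. Of 15894 identifiers, 99.96% were matched in GENCODE M21.

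Members and gene lists were chosen with earlier results of these data known. All members were named. Of each other list, at most 3 genes were named, those with the largest change among genes called in females or over both sexes. Some genes of these lists are not reported here. Genes reaching 1 in 3 or more libraries of a fit were tested with limma 3.58.1 in R 4.3.3 (lmFit, eBayes with trend) on log2(value + 1), with Benjamini-Hochberg adjustment over all genes tested. The sides were compared within each sex and jointly with sex as a term, the regional change was compared between the sexes, and males with females with region as a term. The code was tested on simulated data. No pool-level litter is given, and p-values measure the spread between libraries. In the comparison of the sexes, same-numbered ventral and dorsal libraries counted as separate units, so its p-values do not measure the spread between pools. The alternative with libraries of one number averaged does not count them separately. On the recovered reads edgeR called 3650 genes in female hearts. The library of conflicting labels entered only alternatives.

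Dorsal and ventral libraries share replicate numbers. Deviations from the group means over 15772 genes correlated between same-numbered libraries (0.187, 0.169 and 0.270 for female 1 to 3, and 0.427, 0.175 and 0.351 for male 4 to 6), so the numbers were taken to pair them in the alternatives with a replicate block. Values were also recomputed with a pseudocount of 0.1, without the filter, with a mean of at least 10, with median of ratios or quantile normalization, without trend, with edgeR 4.0.16 on recovered reads, after removal of a GC and length trend (natural splines, 5 degrees of freedom), without each library in turn and with libraries of one number averaged.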

Additional observations from a re-analysis of the deposited data

Results flagged for a closer look

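Lama4 in male ventral hearts had 1 library far below the others by Dixon's test, which flags about 1 group in 20 by chance and was applied to 9 groups of 4 libraries. Male ventral 7 held 105 normalized CPM and libraries 4 to 6 held 144, 141 and 139, with a gap of 0.854 of the whole range against a critical value of 0.829. The same library had the summed erythroid markers of 33713 and the summed blood endothelial markers of 64.4 given above, and their part in the Lama4 value was not tested.

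The regional change of Lama5 differed between the sexes by 1.40 on the log2 scale (limma, adjusted p = 0.0406, above 0 in all 25 alternatives, with adjusted p from 0.00708 to 0.151).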

How the results depend on the processing

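Of the changes of members recomputed under the alternatives, 882 kept direction and side of the threshold, 49 lost a call, 14 gained one and 36 turned direction; none of those that turned was called. The replicate block changed no call of a member; it ended those of Lama3 and Itga3 over both sexes, given above, and no other call of a named gene. In female hearts 5 members were called without trend, 3 with the GC and length trend removed and 4 with that and the replicate block, against 8, and 5 to 8 with 1 library left out. Over both sexes 1 and 0 were called with the trend removed, without and with the block, against 4. For the female minus male difference 0 were called with quantile normalization, without trend or with the GC and length trend removed, 2 with the library of conflicting labels as dorsal or as ventral, against 1, and 0 to 2 with 1 library left out. Between the sexes 1, Lama5, was called in place of 0 with a mean of at least 10, with the trend removed, with libraries of one number averaged and with the library of conflicting labels as dorsal, and 0 to 1 with 1 library left out. In male hearts 0 members were called in all 19 alternatives.

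Changes that turned direction were small. In male hearts, Lamc1 was 0.010 with quantile normalization and Lama2 -0.062 with edgeR. With the GC and length trend removed Lama2 was -0.12, Lamb1 -0.11 and Hspg2 -0.060, and with the block as well Lama2 was -0.066, Lama5 -0.071 and Lamb1 -0.038. Lamb1 was -0.027 with the library of conflicting labels as dorsal and Lama2 -0.032 with it as ventral. Over both sexes, removal of the trend gave -0.031 for Lama4, -0.089 for Lamc1 (-0.041 with the block) and -0.012 for Utrn. Between the sexes it gave 0.082 for Lama2 and 0.017 for Lamb1, and Lamb1 was 0.031 with the library of conflicting labels as dorsal. With 1 library left out, the male change ranged from -0.17 to 0.34 for Lama2, -0.090 to 0.088 for Lamb1, -0.21 to 0.0023 for Lamc1 and -0.032 to 0.44 for Nid2, the female minus male difference of Nid2 from -0.041 to 0.50, and the difference between the sexes from -0.049 to 0.13 for Nid1 and -0.092 to 0.051 for Lamb1. The cause was not tested.

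Over all genes, 4007 were called in female hearts, but 2158 without female ventral replicate 2 and 2291 without female dorsal replicate 2. Over both sexes, 2974 became 1557 and 1739 without female ventral replicate 2 or 3 and 1429 without female dorsal replicate 2. The 431 of the female minus male difference became 804 with the replicate block, 765 with the trend removed as well, and 267 and 260 without female ventral or female dorsal replicate 2. In male hearts 59 genes were called with the block and the trend removed, 1 without trend and 1 without male dorsal replicate 4. Between the sexes 944 were called with averaged libraries, against 1726. Members had at least 193 reads in every library, far above the floor of 3 reads.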

Other observations

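Lamc3, a laminin gamma chain found in few tissues, was close to the floor. It measured at most 1.84 normalized CPM in the libraries of settled region, from 0 to 36 reads per library, and was too low to be tested in female hearts.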
